A study of Mus musculus with 11 samples.

Results

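The comparison described here sets inguinal white fat of Raptor knockout mice that received rosiglitazone against the same depot of untreated wild type mice, and takes in 6 of the 11 RNA-seq libraries of the series, 3 in each group. The libraries were chosen by the genotype and treatment in the names of their deposited files, which match the genotype and treatment labels in 11 of 11 libraries. KO mice carried a floxed Raptor allele and the adiponectin Cre transgene, and WT mice carried the floxed allele without Cre. All were C57BL6/J mice aged 16 weeks at sampling, and all had eaten a high fat diet for 8 weeks. The treated KO group (3 libraries) had rosiglitazone at 30 mg/kg/day in that diet, and the WT diet group (3 libraries) had none. Untreated KO fat (2 libraries) and WT fat with rosiglitazone (3 libraries) entered the same statistical model and are shown where they place a value. The question was which genes of KO fat under the drug lay at the level of untreated WT fat and which did not.

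Raptor, encoded by Rptor, is the subunit that defines mTOR complex 1, a kinase complex that responds to insulin and amino acids and promotes lipid and protein synthesis. Rosiglitazone is a thiazolidinedione that activates PPARG, the nuclear receptor that directs adipocyte differentiation and lipid storage. Adiponectin Cre acts in adipocytes, so other cells of the depot keep Raptor. White fat also holds macrophages, lymphocytes, endothelial cells, pericytes and progenitors. In these bulk libraries, fewer cells of a type and less RNA per cell cannot be told apart.

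Titles and treatment labels conflict for all 6 WT libraries, each title giving the treatment that the label denies. The treatment label was used, which the file names share, and every statement about WT fat on diet rests on that choice. Libraries held 13035346 to 17167452 estimated reads in treated KO fat, against 16088059 to 27160069 in WT fat on diet. Skeletal muscle markers took 4.44% of reads in treated KO library 2 and 1.89% in WT diet library 2, and both libraries stand apart from the rest of their groups in this respect. These are the muscle-rich libraries named below. Treated WT libraries 2 and 3 were rich in these markers too, at up to 1.76% of reads, and stayed in the shared model throughout, except where they were left out singly or the fit held only the compared groups. WT diet library 1 stood apart in another way. Its T and NK cell marker sum was the lowest of its group and its adipocyte marker sum the highest. Values are CPM, read counts relative to the library total after scaling between libraries, and fold changes are on the log2 scale, treated KO over WT on diet, with the standard error (SE) of the model. A gene was called when its p from edgeR's quasi-likelihood test was under 0.05 after Benjamini-Hochberg adjustment across every gene tested. The labels do not say whether the replicates are separate animals, so p-values measure the spread between these libraries, which may be technical.

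Rptor itself was measured at 88.3, 82.4 and 91.7 CPM in treated KO fat, against 92.01, 80.1 and 73.9 CPM in WT fat on diet. The groups overlap, and the difference was 0.094 ± 0.15 (SE), adjusted p = 0.821, with a 95% interval of -0.24 to 0.42. Untreated KO fat had 56.5 and 69.6 CPM. On the TPM scale, which divides by transcript length, Rptor was at 9.93, 12.5 and 20.3 in treated KO fat, against 19.8, 25.2 and 19.9 in WT fat on diet. The median log2 fold change of all genes on log2(TPM + 1) values was -0.48, so lower TPM values are not particular to Rptor. Which exons the deletion removes is not given in the sources used here, and reads of the remaining exons and of cells without Cre count towards these values, so they do not measure the deletion.

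Between treated KO fat and WT fat on diet, 624 of 26960 tested genes were called, which is 2.31%. Of these, 267 (0.99% of tested genes) were higher and 357 (1.32%) lower in treated KO fat. At an unadjusted p under 0.05, 4527 genes passed. For 11523 genes (42.7%) the 95% interval of the fold change lay between -1 and 1, which is within 2-fold in either direction. The remaining genes were neither called nor shown to lie within 2-fold. The intervals are for single genes and are not adjusted over the genes tested. A gene said below to differ by less than 2-fold is one whose interval lay in this band, whether or not it takes in 0. The examples named in the gene lists had the narrowest such intervals. The median log2 fold change over all genes was 0.003.

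The number of called genes depended on single libraries. It was 60, 168 and 102 without treated KO library 1, 2 and 3, and 423, 382 and 677 without WT diet library 1, 2 and 3. Leaving out a library of the other groups, which changes the shared estimate of spread and, through the filter, the genes tested (26752 to 28429), gave 1118 and 1134 for untreated KO libraries 1 and 2 and 328, 379 and 336 for treated WT libraries 1, 2 and 3. Without both muscle-rich libraries of the compared groups, 1 gene was called, Cfd, and 3660 passed an unadjusted p under 0.05. This alternative was added after seeing the data. It leaves 2 libraries against 2 and keeps the treated WT libraries that are rich in muscle markers. On log2(TPM + 1) values the split turned to 54 higher and 1545 lower, with a median over all genes of -0.48, and limma-voom called 1307 higher and 935 lower. Grouping WT libraries by their titles gave 1476 higher and 2561 lower.

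**Figure D1:**
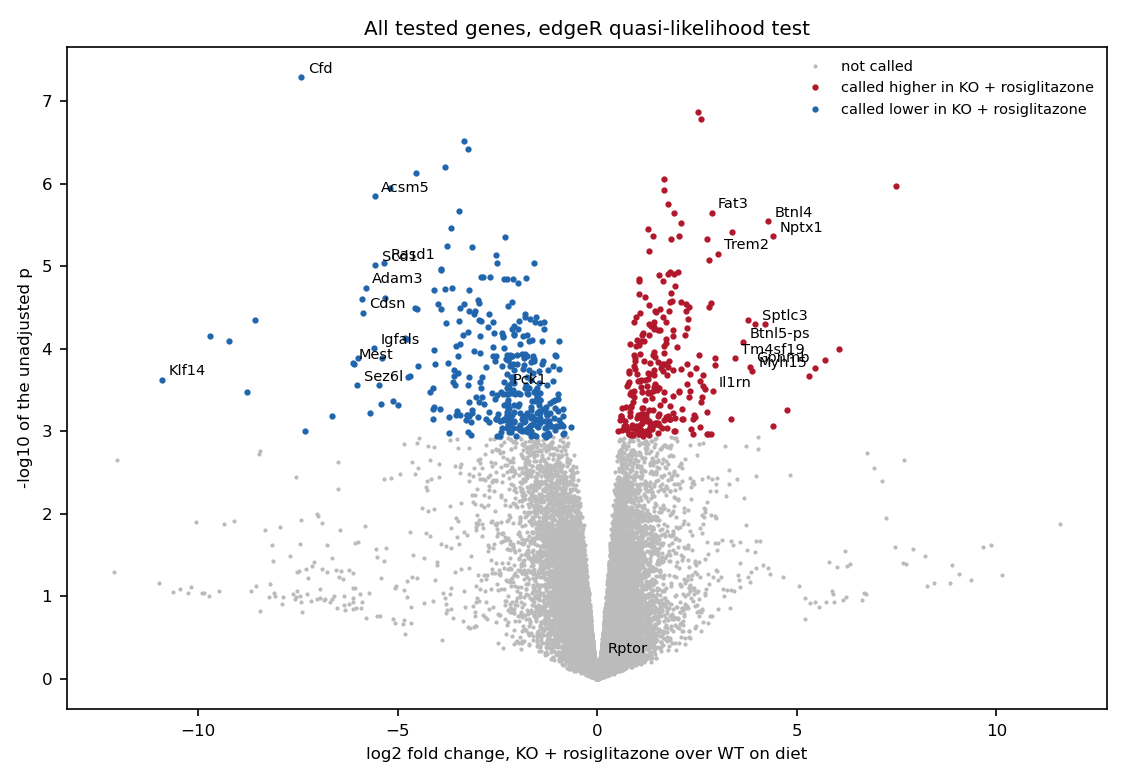
Each point is 1 of 26960 tested genes. The x axis is the log2 fold change of treated KO over WT on diet and the y axis is -log10 of the unadjusted p. The 267 called higher genes are red and the 357 called lower genes blue, with the genes named by size labelled. Points beyond about -8 or 8 include genes with no read in 1 of the groups, whose fitted fold is not a bound. Cfd lies at -7.42 and Rptor near 0.

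The called genes that were lowest in treated KO fat included Cfd, Scd1, Mest, Rasd1 and Acsm5, and those that were highest included Nptx1, Btnl4, Sptlc3, Gpnmb and Trem2. Genes were named as lowest or highest only if their groups did not overlap, so that separation adds no evidence for them. Many list members below were named for the smallest p, a choice that favours groups without overlap. Where separation is stated for such members, it adds no evidence either. The share of all tested genes without overlap is not given here. Cfd (chr10:79890853-79892655, plus strand, GRCm38) encodes adipsin, a serine protease of the alternative complement pathway that fat cells secrete. It was measured at 9.10, 5.57 and 4.92 CPM in treated KO fat, against 1324, 702 and 1323 CPM in WT fat on diet. The 2 groups were far apart in every library, with a log2 fold change of -7.42 ± 0.52 (SE), adjusted p = 0.00137, and the call was kept whichever of the 11 libraries was left out. Untreated KO fat lay in between, with 29.9 and 73.5 CPM.

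Scd1 (chr19:44394455-44407879, minus strand), the desaturase that makes oleate from stearate, was at 371, 381 and 216 CPM in treated KO fat, against 26085, 10127 and 9570.0 CPM in WT fat on diet. All treated KO values were below all WT values (-5.56 ± 0.68 (SE), adjusted p = 0.0071), although without treated KO library 1 the adjusted p was 0.0524. Mest, an imprinted gene linked to fat cell enlargement, was at 6.36, 7.91 and 6.47 CPM in treated KO fat, against 1059, 325 and 69.9 CPM in WT fat on diet (-6.13 ± 1.01 (SE), adjusted p = 0.0181). The WT libraries spread widely here, and 8 of 11 fits with a library left out kept the call. Rasd1, a small GTPase induced by glucocorticoids, was at 2.74, 3.39 and 1.68 CPM in treated KO fat, against 190.2, 58.7 and 69.04 CPM in WT fat on diet, and Acsm5, a medium-chain acyl-CoA synthetase, at 0.0623, 0.0753 and 0.311 CPM in treated KO fat, against 11.02, 5.80 and 5.997 CPM in WT fat on diet. Both fell, Rasd1 with a log2 fold change of -5.35 ± 0.64 (SE), adjusted p = 0.0069, and Acsm5 with -5.58 ± 0.55 (SE), adjusted p = 0.00314.

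Klf14, a transcription factor gene tied to fat depot metabolism in humans, had no read in any treated KO library, against 26.4, 5.75 and 2.19 CPM in WT fat on diet. Against a floor of 3 reads over the group it was at least 186-fold lower (adjusted p = 0.0226), and 6 of 11 fits with a library left out kept the call. The floor and the intervals on reads cover counting error only. Adam3, a gene of the metalloprotease family, had 2 reads over the treated KO group and 175 over the WT group, so that WT fat held 63.4 times as many per library size, with a counting interval from 17.3 to 528. Sez6l (-6.01), Cdsn (-5.88) and Igfals (-5.59) complete the 10 lowest. Igfals encodes the acid-labile subunit that carries insulin-like growth factors in blood.

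Among the highest genes, Nptx1, a secreted pentraxin known from neurons, was at 15.1, 14.3 and 18.8 CPM in treated KO fat, against 0.390, 0.540 and 1.36 CPM in WT fat on diet. It rose by 4.40 ± 0.49 (SE), adjusted p = 0.00468, and all 11 fits with a library left out kept the call. Btnl4, a butyrophilin-like gene, was at 8.91, 8.13 and 8.96 CPM in treated KO fat, against 0.651, 0.246 and 0.417 CPM in WT fat on diet (4.28 ± 0.46 (SE), adjusted p = 0.00448). Sptlc3 (chr2:139493913-139637674, plus strand), a subunit of the enzyme that starts sphingolipid synthesis, was at 5.17, 5.80 and 2.80 CPM in treated KO fat, against 0.304, 0.0982 and 0.469 CPM in WT fat on diet (3.96 ± 0.55 (SE), adjusted p = 0.0113). Both genes were near 0 in untreated KO fat, at 0 and 0.160 CPM for Btnl4 and 0 and 0 CPM for Sptlc3. They were higher still in the WT libraries labelled as rosiglitazone, at 21.7, 17.5 and 13.6 CPM for Btnl4 and 18.5, 46.1 and 35.3 CPM for Sptlc3. Under title grouping the sign of Btnl4, Sptlc3 and the neighbouring pseudogene Btnl5-ps turned, to -1.02, -2.86 and -1.21. Btnl4 and Btnl5-ps are close paralogs, so the division of reads between them is uncertain.

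Gpnmb, a transmembrane glycoprotein of lipid-laden macrophages, was at 977, 1025 and 1242 CPM in treated KO fat, against 110.5, 28.04 and 89.1 CPM in WT fat on diet (3.83 ± 0.66 (SE), adjusted p = 0.0185). Trem2 (chr17:48346401-48354147, plus strand), the lipid receptor of macrophages in obese fat, was at 142, 98.3 and 119.8 CPM in treated KO fat, against 18.05, 9.18 and 17.3 CPM in WT fat on diet (3.01 ± 0.36 (SE), adjusted p = 0.0061), and its call was kept in all 11 fits. The lowest treated KO value exceeded the highest WT value several times over for both genes. That the groups did not overlap was a condition for naming them among the highest. Il1rn, which encodes the interleukin 1 receptor antagonist, was at 35.1, 29.4 and 38.5 CPM in treated KO fat, against 5.73, 2.41 and 5.79 CPM in WT fat on diet (2.89 ± 0.54 (SE), adjusted p = 0.0267). Tm4sf19 (3.44), Fat3 (2.87), Myh15 (3.87) and Btnl5-ps (3.65) complete the 10 highest.

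**Figure D2:**
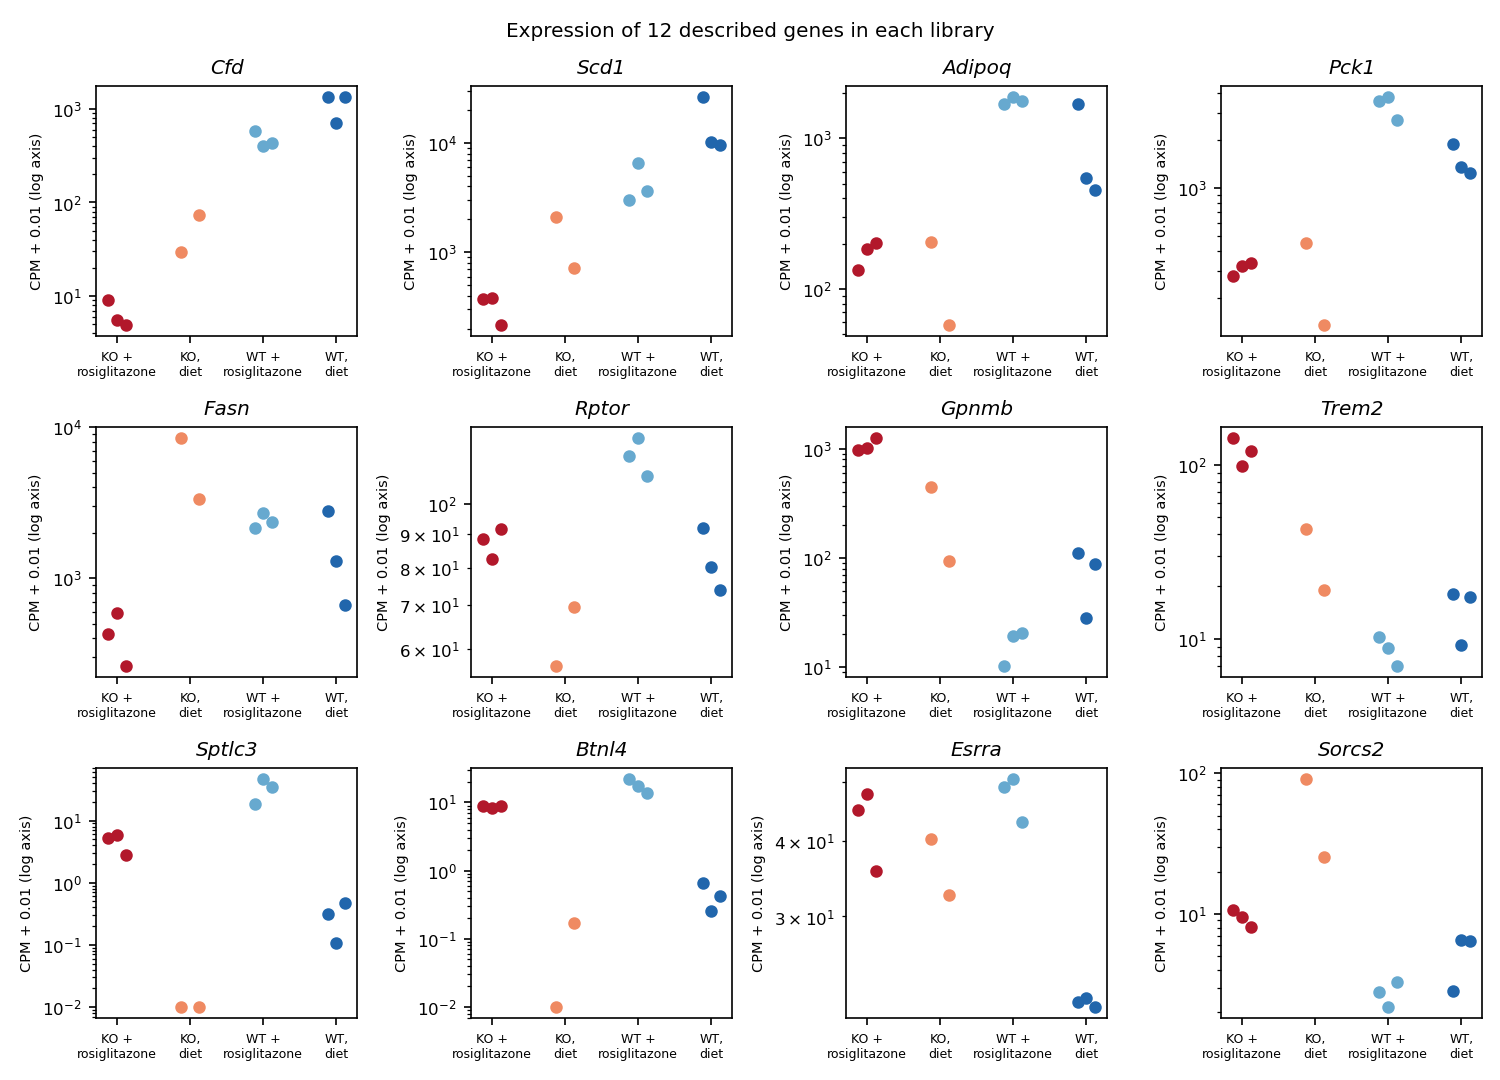
Each panel shows 1 gene, with a point per library, in CPM + 0.01 on a log axis, grouped as KO with rosiglitazone, KO on diet, WT with rosiglitazone and WT on diet. Treated KO points lie below WT diet points for Cfd, Scd1 and Pck1 and above them for Gpnmb, Trem2, Sptlc3, Btnl4 and Esrra, while Rptor overlaps. Sorcs2 is highest in untreated KO.

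Genes of the mature adipocyte lay below WT throughout the list. All 22 of 22 markers had a negative fold change, with a median of -2.01, beside 0.003 over all genes. Of the 22, 8 were called lower, 0 higher, and 0 had an interval within 2-fold, beside 1.32%, 0.99% and 42.7% over all genes. The same shares over all genes apply beside the counts of every list below. This list and those below were chosen with earlier results of these data known. Their counts beside those shares are therefore a description and not independent support. The summed level of the list was 5056, 6273 and 5476 CPM in treated KO fat and 7873 and 2766 CPM in untreated KO fat, against 36158, 15099.9 and 12456 CPM in WT fat on diet. The 3 treated KO libraries were close to each other and all below the WT range, while the WT libraries spread more widely. The median was -1.37 without WT diet library 1, which had the highest adipocyte sum. Without both muscle-rich libraries the median was -2.11 and 1 member was called, and with 1 library left out 1 to 14 members were called, fewest without treated KO library 1.

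Retn, which encodes resistin, was at 15.6, 13.7 and 17.5 CPM in treated KO fat, against 331, 135 and 117 CPM in WT fat on diet (-3.64 ± 0.48 (SE), adjusted p = 0.00853). Rbp4, the retinol carrier of blood that fat also secretes, was at 4.86, 3.54 and 3.24 CPM in treated KO fat, against 172, 60.5 and 47.1 CPM in WT fat on diet (-4.58 ± 0.63 (SE), adjusted p = 0.0105). Nnat, an imprinted membrane proteolipid of adipocytes, was at 51.7, 63.02 and 76.1 CPM in treated KO fat, against 602, 305 and 339 CPM in WT fat on diet (-2.71 ± 0.39 (SE), adjusted p = 0.0107). For all of these every treated KO library was below every WT library. Adipoq, which encodes adiponectin and whose promoter drives the Cre, was at 134, 184 and 200.4 CPM in treated KO fat, against 1679, 546 and 453 CPM in WT fat on diet. It did not pass the test (-2.37 ± 0.57 (SE), adjusted p = 0.065) although the groups did not overlap, and its interval, -3.65 to -1.09, lies wholly below 0. Lep, the hormone leptin, was at 112, 121 and 189 CPM in treated KO fat, against 3645, 952 and 402 CPM in WT fat on diet (-3.57 ± 0.90 (SE), adjusted p = 0.0732).

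The regulators Pparg and Cebpa, the transcription factors that establish the adipocyte state, did not pass the test either. Pparg was at 45.3, 62.1 and 45.1 CPM in treated KO fat, against 185, 93.9 and 77.02 CPM in WT fat on diet (-1.22 ± 0.45 (SE), adjusted p = 0.207), with an interval of -2.23 to -0.21. Cebpa was at 161, 162 and 151 CPM in treated KO fat, against 625, 319.9 and 275 CPM in WT fat on diet (-1.36 ± 0.35 (SE), adjusted p = 0.0781). Plin1, the coat protein of the adipocyte lipid droplet, had a log2 fold change of -1.48 ± 0.43 (SE), adjusted p = 0.113, and Fabp4, the fatty acid carrier, of -0.78 ± 0.43 (SE), adjusted p = 0.41. The interval of Fabp4, -1.75 to 0.18, takes in 0 and a fall of more than 2-fold. Slc2a4, the insulin-responsive glucose transporter, was at 34.1, 119.6 and 45.8 CPM in treated KO fat, against 163, 87.1 and 55.2 CPM in WT fat on diet (-0.61 ± 0.57 (SE), adjusted p = 0.661), so its groups overlap.

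**Figure D3:**
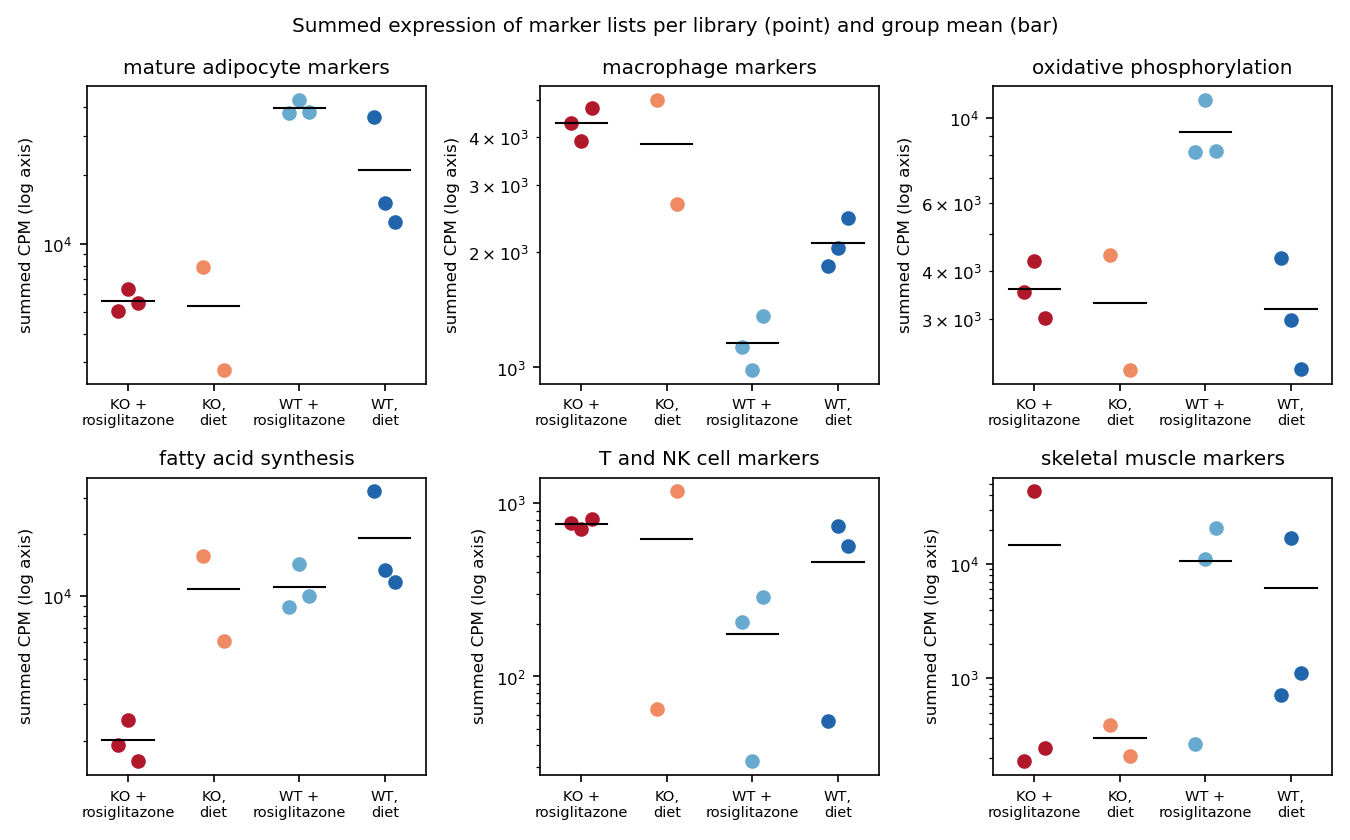
Each panel sums the CPM of 1 list of marker or pathway genes per library (points, log axis) with the group mean as a bar, for KO with rosiglitazone, KO on diet, WT with rosiglitazone and WT on diet. Adipocyte and fatty acid synthesis sums of treated KO libraries lie below all WT diet libraries, macrophage sums above them, and oxidative phosphorylation sums overlap. Muscle sums are high in single libraries of treated KO and WT diet, and in treated WT libraries 2 and 3.

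Known PPARG target genes, on which the drug acts through the receptor, were lower in treated KO fat in 22 of 29 cases, with a median of -0.77. It was -0.23 without WT diet library 1. Of them 1 was called higher, 2 lower, and 1 had an interval within 2-fold. With 1 library left out, 0 to 2 were called higher and 0 to 6 lower, and without the muscle-rich libraries none in either direction, with a median of -0.98. Pck1 (chr2:173153048-173159273, plus strand), which makes glycerol 3-phosphate for triglyceride in fat, was at 279, 322 and 333 CPM in treated KO fat, against 1908, 1360.0 and 1240.3 CPM in WT fat on diet (-2.27 ± 0.42 (SE), adjusted p = 0.0254). Plin4, a lipid droplet coat protein, was at 1204, 1271 and 1330.5 CPM in treated KO fat, against 9226, 4551 and 4225 CPM in WT fat on diet (-2.24 ± 0.45 (SE), adjusted p = 0.0359). Plin5 (chr17:56111601-56117596, minus strand), the droplet protein of oxidative tissues that tethers droplets to mitochondria, was at 67.7, 79.4 and 68.2 CPM in treated KO fat, against 19.9, 26.9 and 11.3 CPM in WT fat on diet and was the called member that rose (1.89 ± 0.38 (SE), adjusted p = 0.0374). Its direction holds under the treatment label only, since title grouping gave -0.40. Nr1h3, the oxysterol receptor LXR alpha, differed by less than 2-fold (-0.11, interval -0.76 to 0.54). Adipocyte markers make up part of this list and their sums are given above. Their part in these values was not tested.

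The proximal promoters of 4 described genes, picked by hand, are shown: Cfd and Pck1 (called lower in treated KO fat) and Plin5 and Trem2 (called higher). They are RefSeq sequences on GRCm38.p6, from 250 bases before to 50 after the transcription start, read on the gene's strand. Capitals mark the nuclear receptor half-site, searched as AGGTCA on both strands, so that TGACCT is the same match on the other strand.
Cfd, chr10:79890603-79890902, plus strand: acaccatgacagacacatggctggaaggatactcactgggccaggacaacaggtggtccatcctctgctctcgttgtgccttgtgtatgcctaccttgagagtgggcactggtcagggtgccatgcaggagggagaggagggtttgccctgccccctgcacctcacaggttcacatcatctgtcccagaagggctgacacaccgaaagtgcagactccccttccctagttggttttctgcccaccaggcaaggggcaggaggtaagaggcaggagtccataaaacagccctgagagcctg
Pck1, chr2:173152823-173153122, plus strand: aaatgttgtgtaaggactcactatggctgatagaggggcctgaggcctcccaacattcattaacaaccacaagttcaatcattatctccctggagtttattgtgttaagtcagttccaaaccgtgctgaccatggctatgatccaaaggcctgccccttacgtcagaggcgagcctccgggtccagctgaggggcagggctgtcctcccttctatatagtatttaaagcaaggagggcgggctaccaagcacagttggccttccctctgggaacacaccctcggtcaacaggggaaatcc
Plin5, chr17:56117499-56117798, minus strand: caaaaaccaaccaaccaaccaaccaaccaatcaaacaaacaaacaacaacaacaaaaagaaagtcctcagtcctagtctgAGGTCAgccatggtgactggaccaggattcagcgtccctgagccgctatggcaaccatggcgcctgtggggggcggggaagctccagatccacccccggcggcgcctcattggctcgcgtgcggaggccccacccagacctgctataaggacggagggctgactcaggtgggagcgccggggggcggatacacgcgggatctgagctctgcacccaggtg
Trem2, chr17:48346151-48346450, plus strand: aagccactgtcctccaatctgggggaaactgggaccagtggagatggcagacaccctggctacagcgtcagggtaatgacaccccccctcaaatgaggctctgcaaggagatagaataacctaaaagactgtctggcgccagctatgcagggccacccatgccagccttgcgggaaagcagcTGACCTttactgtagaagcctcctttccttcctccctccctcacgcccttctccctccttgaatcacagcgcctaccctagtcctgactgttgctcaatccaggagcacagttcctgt
The Plin5 and Trem2 windows hold 1 half-site each and the Cfd and Pck1 windows hold none. Over all 27025 gene promoters of this length 16% hold at least 1. The share was 16% for the 175 called higher genes with a promoter in the table and 8.55% for the 234 called lower genes. A match describes the letters of the window and says nothing about binding.

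Fatty acid synthesis genes, which turn acetyl-CoA into fatty acids and desaturate them, had a median of -0.60 in treated KO over WT, which was -0.96 without treated KO library 2 and -1.03 without both muscle-rich libraries. Of 21 members 2 were called lower, 0 higher, and 5 had an interval within 2-fold. The called members were Scd1 and Pnpla3, and with 1 library left out 0 to 5 were called, none of them without treated KO library 1. Pnpla3, a lipid droplet protein induced by feeding, was at 12.03, 15.8 and 12.8 CPM in treated KO fat, against 391, 179 and 82.2 CPM in WT fat on diet (-4.003 ± 0.55 (SE), adjusted p = 0.0102). The summed level of the list was 1919, 2526 and 1589 CPM in treated KO fat and 15716 and 6063 CPM in untreated KO fat, against 32355, 13436 and 11686 CPM in WT fat on diet. Treated KO sums were below all WT sums, and adipocyte marker sums were lower in the same libraries. Whether the one follows the other was not tested.

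Fasn, the fatty acid synthase, was above WT in untreated KO fat, where Scd1 was below it, at 2118 and 719.5 CPM. Fasn was at 425, 593 and 263 CPM in treated KO fat and 8435 and 3324 CPM in untreated KO fat, against 2771, 1301 and 666 CPM in WT fat on diet. Untreated KO values were the highest of these groups and treated KO values the lowest. The fold change of treated KO over WT was -1.89 ± 0.56 (SE), adjusted p = 0.116, that of untreated KO over WT was 1.90 (adjusted p = 0.29), and that of the drug in KO fat was -3.78 (adjusted p = 0.109), so none passed. Srebf1, the transcription factor gene for lipid synthesis (-0.23, interval -0.87 to 0.41), Elovl5 (-0.35, interval -0.85 to 0.15) and Fads1 (0.029, interval -0.64 to 0.70), which elongates and desaturates polyunsaturated fatty acids in turn, each differed by less than 2-fold.

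Triglyceride synthesis had 2 called lower members among 19, none higher, and a median of -0.57, which was -0.36 without WT diet library 1, -0.90 without WT diet library 3 and -0.89 without both muscle-rich libraries. Mogat1, a monoacylglycerol acyltransferase, was at 0.312, 0.226 and 0.187 CPM in treated KO fat, against 8.24, 4.37 and 4.80 CPM in WT fat on diet (-4.55 ± 0.42 (SE), adjusted p = 0.00283), kept in all 11 fits with a library left out. Dgat2, which adds the last fatty acid to triglyceride, was at 98.00, 114 and 107 CPM in treated KO fat, against 2108, 896 and 537 CPM in WT fat on diet (-3.47 ± 0.51 (SE), adjusted p = 0.0113). For both, all treated KO libraries were below all WT libraries. Members that differed by less than 2-fold were Lpin2 (interval 0.060 to 0.64), Gpat4 (-0.88 to 0.12) and Acsl3 (-0.55 to 0.41) among the 6 of this kind.

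Lipolysis genes had 3 called lower of 19, none higher, and a median of -0.89 (-0.55 without WT diet library 1). The calls numbered 0 to 6 with 1 library left out, none without treated KO library 1, treated KO library 2 and treated KO library 3. Adrb3, the adrenergic receptor of fat cells that starts lipolysis, was at 38.5, 26.2 and 22.9 CPM in treated KO fat, against 131, 113 and 131 CPM in WT fat on diet (-2.10 ± 0.32 (SE), adjusted p = 0.0129). Pde3b, the phosphodiesterase through which insulin restrains lipolysis, was at 139, 173 and 167 CPM in treated KO fat, against 597, 384 and 344 CPM in WT fat on diet (-1.47 ± 0.30 (SE), adjusted p = 0.0359), and Adora1, the adenosine receptor that also restrains it, at 18.02, 23.3 and 22.7 CPM in treated KO fat, against 140.1, 87.3 and 50.01 CPM in WT fat on diet (-2.11 ± 0.46 (SE), adjusted p = 0.0437). The called members thus include the receptor that starts the pathway and 2 genes that hold it back. Npr1, the receptor for atrial natriuretic peptide, differed by less than 2-fold (-0.48 to 0.63).

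Insulin signalling had 3 called lower of 20, none higher, and a median of -0.65 (-0.25 without WT diet library 1). Calls numbered 0 to 5 with 1 library left out. Besides Pde3b they were Grb14, an adaptor that inhibits the insulin receptor, at 5.11, 4.52 and 4.23 CPM in treated KO fat, against 44.6, 16.8 and 17.7 CPM in WT fat on diet (-2.51 ± 0.48 (SE), adjusted p = 0.027), and Trarg1, a regulator of glucose transporter vesicles, at 106, 141 and 129 CPM in treated KO fat, against 822, 427 and 352 CPM in WT fat on diet (-2.09 ± 0.42 (SE), adjusted p = 0.0366). Trarg1 and Pde3b kept the call in 3 of 11 fits with a library left out, and Grb14 in 6. Akt1 (interval 0.18 to 0.95), Foxo3 (0.052 to 0.63) and Tbc1d4 (-0.22 to 0.49), the kinase and 2 of its substrates, differed by less than 2-fold.

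Secreted adipokines had 5 called lower of 17, none higher, with a median of -1.91. Without WT diet library 1 the median was -1.12, and 1 to 8 members were called with 1 library left out. Sfrp5, a secreted Wnt inhibitor, was at 3.93, 3.24 and 3.98 CPM in treated KO fat, against 321, 85.6 and 41.9 CPM in WT fat on diet (-5.33 ± 0.71 (SE), adjusted p = 0.00991), and Nrg4, an epidermal growth factor family ligand, at 14.03, 19.9 and 17.4 CPM in treated KO fat, against 155, 115 and 106 CPM in WT fat on diet (-2.88 ± 0.37 (SE), adjusted p = 0.00747). The other called members, Cfd, Retn and Rbp4, are also adipocyte markers. Nampt (interval -0.97 to 0.35) and Nucb2 (-0.67 to 0.61), which are made by many cell types, differed by less than 2-fold.

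Complement and acute-phase genes had 8 called lower of 23, none higher, with a median of -1.15, which was -0.20 without WT diet library 1. Beside Cfd, Lrg1, a leucine-rich glycoprotein of the acute phase, was at 28.2, 26.8 and 29.2 CPM in treated KO fat, against 403, 138 and 119 CPM in WT fat on diet (-2.97 ± 0.43 (SE), adjusted p = 0.0113). Serpina3c, a serine protease inhibitor, was at 6.79, 5.27 and 11.01 CPM in treated KO fat, against 252, 85.4 and 54.4 CPM in WT fat on diet (-4.08 ± 0.68 (SE), adjusted p = 0.0181), and Cp, the copper carrier ceruloplasmin, at 45.4, 36.2 and 38.02 CPM in treated KO fat, against 109, 79.5 and 104 CPM in WT fat on diet (-1.29 ± 0.26 (SE), adjusted p = 0.0344). In each case no treated KO library reached the lowest WT library. Cp differed from the others in untreated KO fat, where it was at 122 and 58.5 CPM. With 1 library left out 1 to 9 members were called lower, and title grouping turned the sign of the list median to 0.73. Serpina3c belongs to a cluster of near-identical genes, so its reads may be divided among copies.

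Branched-chain amino acid catabolism, by which fat cells oxidise leucine, isoleucine and valine, had 6 called lower of 24, none higher, with a median of -0.93 (-0.54 without WT diet library 1). Ivd, isovaleryl-CoA dehydrogenase of the leucine branch, was at 41.3, 52.6 and 43.1 CPM in treated KO fat, against 183, 112 and 103 CPM in WT fat on diet (-1.54 ± 0.22 (SE), adjusted p = 0.0112). Mccc1 and Mccc2, the subunits of methylcrotonyl-CoA carboxylase in the same branch, had log2 fold changes of -1.18 ± 0.24 (SE), adjusted p = 0.0374, and -1.56 ± 0.30 (SE), adjusted p = 0.0303. Aldh6a1, of the valine branch, was at 55.5, 95.3 and 74.4 CPM in treated KO fat, against 527, 269 and 250.1 CPM in WT fat on diet (-2.22 ± 0.44 (SE), adjusted p = 0.0344). The groups did not overlap for these genes, which were named for the smallest p, so the separation adds no evidence. Bcat2, the transaminase that opens the pathway, differed by less than 2-fold (-0.65 to 0.25), as did Ppm1k (-0.93 to -0.047), the phosphatase that activates the next enzyme, and Auh (-0.81 to -0.14). Leaving out 1 library gave 0 to 7 calls, none without treated KO library 1 and treated KO library 3.

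**Figure D4:**
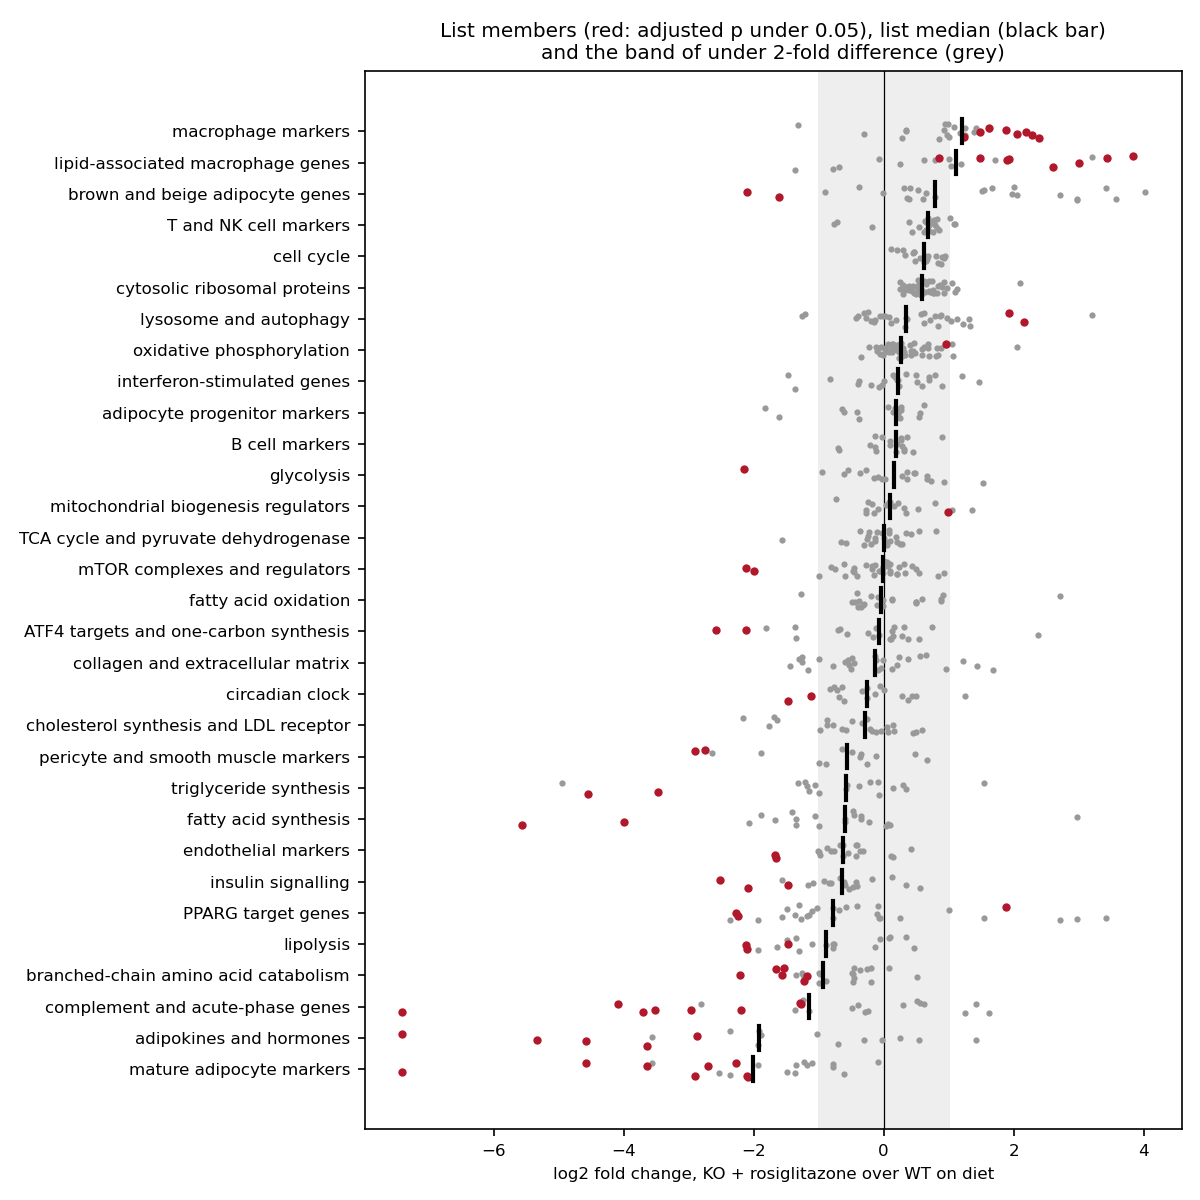
Each row is 1 list, ordered by its median log2 fold change of treated KO over WT on diet (black bar). Points are members, red where the adjusted p is under 0.05, and the grey band marks differences of less than 2-fold. The skeletal muscle and mammary epithelial lists are not drawn. Macrophage markers and lipid-associated macrophage genes lie at the top and adipocyte markers, adipokines and complement genes at the bottom. The medians of oxidative phosphorylation, the TCA cycle, fatty acid oxidation and mTOR genes lie near 0.

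For oxidative phosphorylation, the respiratory chain and ATP synthase, 27 of 57 subunits had an interval within 2-fold, 1 was called higher and 0 lower, shares near the 42.7%, 0.99% and 1.32% of all genes. The small differences went mostly 1 way, with a positive fold change in 49 of 57. An unadjusted p under 0.05 was reached by 13 higher and 0 lower members. DESeq2 called 4 higher and 0 lower, and limma-voom 9 higher and 0 lower. The median was 0.26, and 0.40, 0.54 and 0.060 without treated KO library 3, WT diet library 1 and WT diet library 3. On log2(TPM + 1) values this median was -0.46, which is 0.015 above the median of all genes on that scale, and under title grouping it was -1.13. Uqcrh, a subunit of complex III, was the called member, at 50.99, 37.7 and 29.4 CPM in treated KO fat, against 21.2, 21.9 and 17.6 CPM in WT fat on diet (0.96 ± 0.21 (SE), adjusted p = 0.0451), and 2 of 11 fits with a library left out kept it. Summed levels were 3524, 4247 and 3015 CPM in treated KO fat, against 4328, 2974 and 2215 CPM in WT fat on diet, and overlap. Atp5l (interval -0.11 to 0.59) and Cox5b (-0.14 to 0.74) were among the subunits within 2-fold. Treated KO library 2, rich in muscle, had the highest sum of its group, and without both muscle-rich libraries the median was 0.14.

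In the TCA cycle list 15 of 27 members had an interval within 2-fold. The median was 0.011, and edgeR called 0 members, an unadjusted p under 0.05 was reached by 1 higher and 2 lower members, DESeq2 called 0 higher and 1 lower, and limma-voom 0 higher and 0 lower. Fatty acid oxidation had 7 of 24 within 2-fold and a median of -0.047, and edgeR called 0 members, an unadjusted p under 0.05 was reached by 3 higher and 1 lower members, DESeq2 called 1 higher and 0 lower, and limma-voom 4 higher and 0 lower. Cpt1a, the liver form of the carnitine palmitoyltransferase that admits fatty acids to mitochondria, was at 111, 114 and 136 CPM in treated KO fat, against 179, 90.5 and 94.2 CPM in WT fat on diet (-0.011, interval -0.61 to 0.59). Cpt1b, the muscle and brown fat form, was at 74.2, 150.1 and 72.2 CPM in treated KO fat, against 6.68, 34.3 and 4.38 CPM in WT fat on diet (2.71 ± 0.83 (SE), adjusted p = 0.136). Its highest value in each group is that of the muscle-rich library. Pcx, pyruvate carboxylase, was at 152, 211 and 167 CPM in treated KO fat, against 953, 394 and 229 CPM in WT fat on diet (-1.57 ± 0.50 (SE), adjusted p = 0.144). The signs of the TCA and fatty acid oxidation medians changed under several settings, so no direction is given for them.

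Mitochondrial biogenesis regulators had 1 called higher of 19, 0 lower, and 13 within 2-fold. The called gene was Esrra, the nuclear receptor ERR alpha that drives mitochondrial genes, at 44.9, 47.8 and 35.7 CPM in treated KO fat, against 21.6, 22.1 and 21.3 CPM in WT fat on diet (0.98 ± 0.15 (SE), adjusted p = 0.0138). All treated KO libraries were above all WT libraries, and 9 of 11 fits with a library left out kept the call. Its sign turned to -0.15 under title grouping and to -0.020 on log2(TPM + 1) values, where the median of all genes was -0.48. Ppargc1b, a coactivator of that receptor, was at 17.1, 25.5 and 19.4 CPM in treated KO fat, against 10.6, 10.8 and 8.29 CPM in WT fat on diet (1.06 ± 0.25 (SE), adjusted p = 0.0615). Polg (interval -0.20 to 0.36), Sirt1 (-0.50 to 0.13) and Polrmt (0.033 to 0.65) differed by less than 2-fold.

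Brown and beige adipocyte genes, which serve heat production, had a median of 0.79 (0.45 without treated KO library 2), with 0 called higher and 2 lower of 25, while an unadjusted p under 0.05 was reached by 10 higher and 2 lower members. The called members were Adrb3 and Prdm16, the cofactor that specifies brown fat, at 9.04, 9.19 and 7.84 CPM in treated KO fat, against 36.4, 21.3 and 22.01 CPM in WT fat on diet (-1.61 ± 0.27 (SE), adjusted p = 0.0174). Ucp1, the uncoupling protein of brown and beige fat, was at 30.5, 139 and 24.3 CPM in treated KO fat, against 0, 18.1 and 0 CPM in WT fat on diet. It had no read in 2 WT libraries and its highest value in each group came from the muscle-rich library. Its difference was 3.42 ± 1.78 (SE), adjusted p = 0.385. Fabp3, a fatty acid carrier of heart, muscle and brown fat, was at 14.8, 46.2 and 17.9 CPM in treated KO fat, against 0.434, 3.29 and 1.15 CPM in WT fat on diet (4.02 ± 0.92 (SE), adjusted p = 0.0574), again highest in the muscle-rich libraries. The list median turned to -0.34 under title grouping. The median without the muscle-rich libraries was 0.56. In untreated KO fat, where muscle markers took 0.0257% to 0.0417% of reads, the list median over WT was 1.11. The part of muscle tissue in these values was not tested.

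Genes of the mTOR complexes and their regulators lay mostly within 2-fold. This held for 25 of 38, against 42.7% of all genes. With a filter of 1 CPM in 3 libraries the share of all genes was 50.2%, so it depends on how many low genes are kept. The list median was -0.014, with a sign that changed when single libraries were left out (-0.15 to 0.11). Tsc1 (interval -0.045 to 0.51), an inhibitor of the complex, Nprl3 (-0.27 to 0.30), of the amino acid sensing branch, and Rps6kb2 (-0.23 to 0.35), a kinase that it activates, are examples. Of the list 2 were called lower and 0 higher. Sesn2, the leucine sensor sestrin 2, was at 8.73, 9.64 and 9.71 CPM in treated KO fat, against 64.9, 34.97 and 22.4 CPM in WT fat on diet (-2.12 ± 0.36 (SE), adjusted p = 0.0181), and Castor1, the arginine sensor, at 5.80, 7.45 and 6.04 CPM in treated KO fat, against 45.3, 17.8 and 13.98 CPM in WT fat on diet (95% interval -2.88 to -1.12, adjusted p = 0.0333). Both sensors were below every WT library in all treated KO libraries. Leaving out 1 library gave 0 to 3 lower calls, and none without treated KO library 1, treated KO library 2 and treated KO library 3. Tfeb, a transcription factor that the complex holds out of the nucleus, was at 41.4, 49.1 and 41.01 CPM in treated KO fat, against 17.1, 28.8 and 27.5 CPM in WT fat on diet (0.84 ± 0.25 (SE), adjusted p = 0.113).

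The ATF4 and one-carbon list, whose transcription mTOR complex 1 promotes, had 2 called lower of 23, none higher, and a median of -0.079, which was 0.12 without WT diet library 1 and -0.18 without WT diet library 3. Phgdh, the first enzyme of serine synthesis, was at 37.8, 31.5 and 31.6 CPM in treated KO fat, against 372, 129 and 99.2 CPM in WT fat on diet (-2.57 ± 0.43 (SE), adjusted p = 0.0178), and the other called member was Sesn2. Ddit3 (interval -0.20 to 0.52), Psph (-0.48 to 0.33) and Shmt2 (0.042 to 0.72) differed by less than 2-fold. In cholesterol synthesis, edgeR called 0 members, an unadjusted p under 0.05 was reached by 2 higher and 9 lower members, DESeq2 called 0 higher and 5 lower, and limma-voom 1 higher and 4 lower. There 11 of 24 had an interval within 2-fold, a share near the 42.7% of all genes. Sqle (-0.29 to 0.39), the squalene epoxidase, was among them. The median was -0.29 (-0.020 without WT diet library 1). In glycolysis Pfkfb3, which makes the activator of phosphofructokinase, was called lower, at 175, 223 and 170.2 CPM in treated KO fat, against 1291, 753 and 466 CPM in WT fat on diet (-2.14 ± 0.35 (SE), adjusted p = 0.017), and the other 19 of 20 were not called. Hk1 (interval -0.042 to 0.62) and Slc2a1 (-0.19 to 0.90) differed by less than 2-fold.

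Macrophage markers had a median of 1.20. Of 26 members 8 were called higher, 0 lower, and 0 lay within 2-fold, beside 0.99%, 1.32% and 42.7% over all genes. The summed level was 4368, 3919.6 and 4759 CPM in treated KO fat and 5016 and 2668 CPM in untreated KO fat, against 1843, 2058 and 2452 CPM in WT fat on diet. Every treated KO sum was above every WT sum, and both untreated KO sums were too. Tyrobp, the adaptor that signals for TREM2, was at 53.9, 42.9 and 54.3 CPM in treated KO fat, against 13.2, 8.20 and 11.5 CPM in WT fat on diet (2.20 ± 0.34 (SE), adjusted p = 0.0129). Ctss, a lysosomal protease of antigen-presenting cells, was at 341, 218 and 281 CPM in treated KO fat, against 79.3, 82.4 and 111 CPM in WT fat on diet (1.62 ± 0.28 (SE), adjusted p = 0.0181), and Cd84, a receptor of haematopoietic cells, at 163, 141 and 175 CPM in treated KO fat, against 52.7, 77.6 and 73.5 CPM in WT fat on diet (1.23 ± 0.23 (SE), adjusted p = 0.0247). Itgax, the integrin CD11c of inflammatory macrophages in obese fat, was at 65.3, 59.03 and 80.5 CPM in treated KO fat, against 34.01, 18.9 and 20.4 CPM in WT fat on diet (1.48 ± 0.28 (SE), adjusted p = 0.0263). With 1 library left out 0 to 16 members were called higher, none without treated KO library 1 and treated KO library 3, and none without both muscle-rich libraries, where the median was 1.14.

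Lipid-associated macrophage genes, the programme of macrophages that take up lipid around dying fat cells, had 8 called higher of 20, none lower, and a median of 1.11. Beside Trem2, Gpnmb and Tm4sf19, Nceh1, a cholesteryl ester hydrolase, was at 138, 117 and 127 CPM in treated KO fat, against 37.4, 27.3 and 38.2 CPM in WT fat on diet (1.89 ± 0.29 (SE), adjusted p = 0.0123). All treated KO values were above all WT values for these genes. Apoe differed by less than 2-fold (-0.077, interval -0.60 to 0.45). Lpl, Fabp4 and Cd36 belong to this list and are also made by adipocytes. The summed level of the list overlapped between the groups, at 10089, 10005 and 11322 CPM in treated KO fat, against 20555, 7575 and 6806 CPM in WT fat on diet. With 1 library left out 1 to 11 members were called higher. In the lysosome list, Ctsk (2.15 ± 0.45 (SE), adjusted p = 0.0392) and Lipa (1.92 ± 0.42 (SE), adjusted p = 0.0457), the cathepsin and the acid lipase, were the called members of 36. Of the list 14 lay within 2-fold, a share near the 42.7% of all genes, Atg5 (-0.42 to 0.29) and Tfe3 (-0.17 to 0.56) among them. Lysosome calls numbered 0 to 8 with 1 library left out, none in 8 of the 11 fits. The lysosome median was 0.35, 0.53 without WT diet library 1, and -0.30 on log2(TPM + 1) values, which is 0.17 above the median of all genes there.

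Vascular lists had medians below 0. Of 20 endothelial markers 2 were called lower, none higher, with a median of -0.63 (-0.32 without WT diet library 1). None was called without any 1 of the treated KO or treated WT libraries. Aqp1, a water channel, was at 88.6, 82.8 and 85.7 CPM in treated KO fat, against 424, 201 and 184 CPM in WT fat on diet (-1.65 ± 0.33 (SE), adjusted p = 0.0342), and Rgcc, a regulator of endothelial growth, at 35.03, 42.3 and 37.96 CPM in treated KO fat, against 193, 91.1 and 82.9 CPM in WT fat on diet (-1.67 ± 0.36 (SE), adjusted p = 0.0458). Aqp1 and Rgcc lay below every WT library, while Pecam1 (interval -0.79 to 0.15) and Eng (-0.41 to 0.68), general endothelial surface proteins, differed by less than 2-fold. Of 14 pericyte and smooth muscle markers 2 were called lower, none higher, with a median of -0.57, which was -0.21 without WT diet library 1, -0.87 without treated KO library 2 and 0.15 under title grouping. Rgs5, a pericyte regulator of G protein signalling, was at 43.4, 59.03 and 41.9 CPM in treated KO fat, against 538, 238 and 191 CPM in WT fat on diet (-2.74 ± 0.41 (SE), adjusted p = 0.012), and Mcam, an adhesion molecule of vessel walls, at 42.3, 36.9 and 35.2 CPM in treated KO fat, against 541, 180.0 and 132 CPM in WT fat on diet (-2.90 ± 0.52 (SE), adjusted p = 0.0215). Notch3 (-0.72 to 0.22) and Pdgfrb (-0.92 to 0.24), which define pericytes, differed by less than 2-fold.

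Progenitor markers had a median of 0.19 (0.022 without WT diet library 2), and edgeR called 0 members, an unadjusted p under 0.05 was reached by 1 higher and 2 lower members, DESeq2 called 0 higher and 2 lower, and limma-voom 1 higher and 2 lower. Dpp4 (0.18, interval -0.55 to 0.90), a marker of early progenitors, was at 45.01, 51.2 and 55.4 CPM in treated KO fat, against 30.97, 44.4 and 58.7 CPM in WT fat on diet, beside 134 and 95.1 CPM in untreated KO fat. For collagen and matrix genes edgeR called 0 members, an unadjusted p under 0.05 was reached by 3 higher and 4 lower members, DESeq2 called 2 higher and 0 lower, and limma-voom 4 higher and 0 lower. Col1a1, the main fibrillar collagen chain, was at 4163, 1901 and 2442 CPM in treated KO fat, against 1083, 592 and 972 CPM in WT fat on diet, so the groups did not overlap, but it did not pass the test (1.68 ± 0.43 (SE), adjusted p = 0.0732). T and NK cell marker sums were 767, 708 and 816 CPM in treated KO fat, against 55.2, 744 and 568 CPM in WT fat on diet. B cell marker sums were 1278, 1459.5 and 1578 CPM in treated KO fat, against 789, 2096 and 1867 CPM in WT fat on diet. For T and NK cell markers edgeR called 0 members, an unadjusted p under 0.05 was reached by 0 higher and 0 lower members, DESeq2 called 0 higher and 0 lower, and limma-voom 0 higher and 0 lower, and for B cell markers edgeR called 0 members, an unadjusted p under 0.05 was reached by 0 higher and 2 lower members, DESeq2 called 0 higher and 2 lower, and limma-voom 0 higher and 2 lower. The WT libraries differ widely among themselves in T and NK cell markers, with library 1 low. Lymph node tissue sits in this depot, and how much each sample held is not given in the sources used here. Of the milk protein genes that define secretory mammary epithelium, Csn2 was at 0.374, 0.452 and 0.0622 CPM in treated KO fat, against 0.390, 0.835 and 0.469 CPM in WT fat on diet, Csn3 was at 3.99, 1.36 and 2.68 CPM in treated KO fat, against 1.26, 1.42 and 2.71 CPM in WT fat on diet, and Wap and Lalba were at or near 0 and were not tested. Trf, transferrin, which adipocytes also make, was the called member of the mammary list, at 240.3, 165 and 184 CPM in treated KO fat, against 1589, 599 and 593 CPM in WT fat on diet (-2.24 ± 0.42 (SE), adjusted p = 0.027).

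Untreated KO fat against WT fat on diet gave 37 called genes (0.137%), 7 higher and 30 lower, and the drug within KO fat gave 4 (0.0148%). DESeq2 called 736 and 364 in these comparisons, and with only the groups compared in the fit edgeR called 0 in each, with 1404 and 1531 genes at an unadjusted p under 0.05. With 1 library left out the counts were 2 to 250 and 1 to 145, the highest in both cases without untreated KO library 2. The 3 comparisons share libraries in pairs, so their values stand side by side without a test of likeness.

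Slc2a5, the fructose transporter, was the called gene that fell with the drug in KO fat, and was named after its values were seen. It was at 0.0623, 0.0753 and 0 CPM in treated KO fat and 13.7 and 5.15 CPM in untreated KO fat, against 0.0434, 0.0491 and 0.0522 CPM in WT fat on diet. It was thus close to absent in treated KO and in WT fat and present in both untreated KO libraries. The adjusted p was 0.0298 for the drug within KO fat, 0.0168 for untreated KO over WT and 0.98 for treated KO over WT, and no fold is given because the low groups hold 3 reads or fewer each. The other called genes of the drug within KO fat were Btnl4, Hist1h2ap and C77080. C77080, likewise named after its values were seen, was at 66.9, 71.8 and 68.5 CPM in treated KO fat and 21.6 and 14.3 CPM in untreated KO fat, against 10.4, 9.63 and 14.3 CPM in WT fat on diet. Its treated KO values lay above all others (2.59 ± 0.20 over WT, adjusted p = 0.00146, and 1.95 ± 0.23 over untreated KO, adjusted p = 0.0491), so here the drug went with a level further from WT.

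The genes that the rule named as lowest in untreated KO fat were low under the drug too, Hist1h2ap excepted. They were picked as low against the same WT libraries, and WT values that happen to be high lower both comparisons. That choice favours low values in treated KO fat as well, so this pattern too is only described. Rasd1 was at 2.74, 3.39 and 1.68 CPM in treated KO fat and 2.36 and 2.44 CPM in untreated KO fat, against 190.2, 58.7 and 69.04 CPM in WT fat. Vnn1, a pantetheinase and known target of PPAR receptors, was at 0.374, 0.301 and 0.809 CPM in treated and 1.23 and 0.479 CPM in untreated KO fat, against 23.1, 12.97 and 19.9 CPM in WT fat. The fold changes over WT were -5.20 for treated KO (adjusted p = 0.00289) and -4.46 for untreated KO (adjusted p = 0.0225). Slc6a13, a GABA transporter, had -4.11 and -4.29 in the same order, and Aldh1l1, an enzyme of folate metabolism, -3.82 and -4.15. Nnat was at 51.7, 63.02 and 76.1 CPM in treated and 33.9 and 13.9 CPM in untreated KO fat, so the treated values were the higher ones, but the step within KO fat did not pass (1.41, adjusted p = 0.39). Hist1h2ap, a histone gene of a multi-copy family whose reads cannot be assigned with certainty, had no read in untreated KO fat, against 6.61, 7.83 and 11.01 CPM in treated KO fat and 4.77, 4.52 and 5.68 CPM in WT fat on diet.

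The rule named 4 genes that were high in untreated KO fat, and under the drug these lay nearer to WT. They were picked for extreme values in untreated KO fat over the same WT libraries. That choice by itself favours values nearer to WT in another group, so the pattern is only described. Sorcs2, a sorting receptor, was at 10.6, 9.49 and 8.09 CPM in treated KO fat and 90.5 and 25.4 CPM in untreated KO fat, against 2.82, 6.53 and 6.47 CPM in WT fat. Its fold change over WT was 0.83 in treated KO (adjusted p = 0.397, interval -0.16 to 1.83) and 3.46 in untreated KO (adjusted p = 0.0381). Pth1r, the parathyroid hormone receptor, had 0.91 in treated KO (adjusted p = 0.204) and 2.68 in untreated KO (adjusted p = 0.0365). Cd209g, a lectin of the DC-SIGN family, had 1.36 and 2.51 in the same order, and Aspg, an asparaginase, 1.94 and 3.71. Aspg was still called in treated KO fat (adjusted p = 0.0457). The step within KO fat did not pass for any of them, with -2.62 for Sorcs2 (adjusted p = 0.154), -1.77 for Pth1r (0.177), -1.77 for Aspg (0.269) and -1.14 for Cd209g (0.396), so a difference between treated and untreated KO fat is not shown for these genes.

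**Figure D5:**
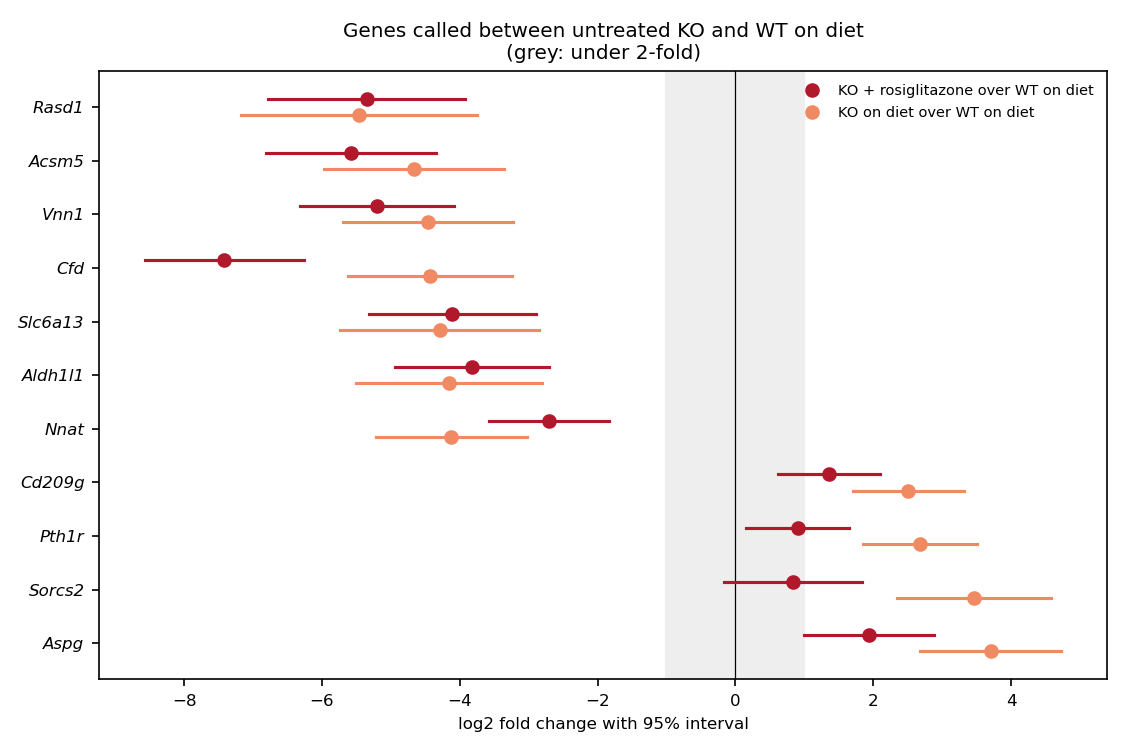
Points are log2 fold changes over WT on diet with their 95% intervals, for KO with rosiglitazone (dark) and KO on diet (light), of 11 genes called between untreated KO and WT. The grey band marks differences of less than 2-fold. Genes from Rasd1 to Nnat lie below the band in both comparisons. Treated KO values of Sorcs2 and Pth1r lie inside the band at 0.83 and 0.91, with intervals that reach beyond it.

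List medians over WT on diet in treated and in untreated KO fat stood side by side as follows. For mature adipocyte markers they were -2.01 and -1.53, and for branched-chain amino acid catabolism -0.93 and -1.02. For macrophage markers they were 1.20 and 1.05. For fatty acid synthesis they were -0.60 and -0.061, for complement and acute-phase genes -1.15 and 0.15, and for lipid-associated macrophage genes 1.11 and 0.56. The treated KO median was the nearer to 0 in further lists, with -0.77 and -1.03 for PPARG targets, -0.89 and -1.03 for lipolysis, 0.79 and 1.11 for brown and beige genes, 0.19 and 0.92 for progenitors and 0.22 and 0.72 for interferon-stimulated genes. Over all 33 lists the treated KO median was nearer to 0 than the untreated KO median in 16 and farther from 0 in 17. No list member was called for the drug within KO fat by edgeR. The list medians themselves were not tested between the KO groups.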

How the data were processed

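Inguinal white fat was frozen, its RNA taken up in Trizol and sequenced from Nextera XT libraries, per the labels' protocols, in which no strand is named. The authors used Salmon on transcripts, and edgeR and the builds GRCm38 and mm10 are also named, per the submitters' processing notes, with versions not given in the sources used here. The deposited tables give an estimated count and a TPM value for each of 132288 transcripts, per the file headers. Salmon divides reads among similar transcripts, so close paralogs are uncertain, and reads of antisense genes cannot be separated without strand.

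Transcripts were matched to GENCODE M21 on GRCm38 (131892 of them without the version number). The other 396, with 0.0985% to 0.144% of the reads per library, were dropped. Gene counts are rounded sums of estimated counts over 52282 genes. Groups follow the genotype and treatment characteristics. Replicates were never identical (chi-square per degree of freedom, 26.5 to 139). edgeR 4.0.16 (R 4.3.3) fitted 1 quasi-likelihood model with robust dispersion over 11 libraries and 4 group means, with TMM scaling and the filter by group, which kept 26960 genes, the family for Benjamini-Hochberg adjustment. Standard errors are the size of the log2 fold change over the square root of F, and 95% intervals use the model's degrees of freedom. A gene counted as within 2-fold only if it had more than 3 reads over both groups. The fit was tested on simulated counts. Alternatives used DESeq2 1.42.0 and limma 3.58.1 among others.

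The members and gene lists (33) were chosen with earlier results of these data known. The rule for naming genes took fixed adipose genes, the 10 highest and the 10 lowest fold changes of called genes (average log2 CPM 1 or more, predicted genes left out, groups not overlapping), up to 4 members of each list with the smallest p and up to 3 with the narrowest interval within 2-fold, and the 8 lowest and highest of untreated KO over WT. Some genes it gave are not reported here, which leaves 223 genes, of which 68 were called.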

Additional observations from a re-analysis of the deposited data

How the results depend on the processing

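The count of 624 called genes stayed within 1.5 times under RLE (587) and upper-quartile scaling (894), no filter (634) and a filter of 1 CPM in 3 libraries (748). It was 1939 with DESeq2, 2242 with limma-voom, 328 with only the groups compared, 4037 with WT grouped by titles, 1599 on log2(TPM + 1) values, 1 without both muscle-rich libraries (added after seeing the data), and 60 to 1134 with 1 library left out. The count within 2-fold (11523) was 8700 to 14630 under the other alternatives, 9427 to 12281 with 1 library left out, and 7560 without the muscle-rich libraries. For untreated KO over WT, 37 became 77 with upper-quartile scaling, 736 with DESeq2, 6 with limma-voom, 75 with no filter, 0 with only the groups compared, 2886 by titles, 83 on log2(TPM + 1) values and 2 to 250 with 1 library left out. For the drug in KO fat, 4 became 14, 364, 0 (1153 at an unadjusted p under 0.05), 20 and 0 under the first 5 of these, 2 with the 1 CPM filter, 254 on log2(TPM + 1) values and 1 to 145 with 1 library left out. The causes were not tested.

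With the replicate number as a block the counts were 467 (418 shared with the 624), 1 and 1. Same-numbered libraries of treated KO and WT fat correlated at 0.04, 0.22 and 0.11, so the numbers were not taken to pair them, and not every library correlated best with its own number.

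Signs that turned with WT grouped by titles were Btnl4 (-1.02), Sptlc3 (-2.86), Btnl5-ps (-1.21), Plin5 (-0.40), Acadvl (-1.69), Hadha (-1.40), Uqcrh (-0.50), Ndufs7 (-0.74), Cox5b (-1.12), Pdk2 (-1.43), Esrra (-0.15), Pfkp (0.49) and Tbc1d4 (-0.63); Esrra was -0.020 on log2(TPM + 1) values. Of 68 called genes that the text's rule named, 8 were called in all 11 fits with a library left out, and 9, 24 and 17 remained called without treated KO library 1, 2 and 3. With 3 libraries a group, intervals of low genes are wide, so a gene that did not pass may still differ.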

Other observations

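Some further lists gave few called genes or none. For cytosolic ribosomal proteins, the building blocks of the ribosome whose translation mTOR complex 1 promotes, 46 of 46 members had a higher level in treated KO fat than in WT fat on diet, with a median log2 fold change of 0.59. On log2(TPM + 1) values the median was -0.13, which is 0.35 above that of all genes. Their summed level was 7108, 5535 and 5956 CPM in treated KO fat, against 3571, 4561 and 4235 CPM in WT fat on diet, and did not overlap. For these genes edgeR called 0 members, an unadjusted p under 0.05 was reached by 32 higher and 0 lower members, DESeq2 called 22 higher and 0 lower, and limma-voom 17 higher and 0 lower. Rpl19 was at 125, 81.6 and 89.5 CPM in treated KO fat, against 38.9, 48.6 and 47.6 CPM in WT fat on diet (1.13 ± 0.25 (SE), adjusted p = 0.0501), and Rpl23 lay within 2-fold (interval 0.19 to 0.80). Many ribosomal proteins have near-identical pseudogenes that may share reads.

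Cell cycle genes had a median of 0.63, and -0.033 on log2(TPM + 1) values, which is 0.44 above that of all genes. Their sums were 464, 550.4 and 557 CPM in treated KO fat and 294 and 359 CPM in untreated KO fat, against 306, 335 and 426 CPM in WT fat on diet. For them edgeR called 0 members, an unadjusted p under 0.05 was reached by 13 higher and 0 lower members, DESeq2 called 5 higher and 0 lower, and limma-voom 9 higher and 0 lower. Ccnb2, a mitotic cyclin, was at 4.80, 7.08 and 6.47 CPM in treated KO fat, against 2.86, 3.19 and 3.75 CPM in WT fat on diet (0.90 ± 0.21 (SE), adjusted p = 0.0589), and Pcna, the DNA polymerase clamp, at 55.3, 48.3 and 53.1 CPM in treated KO fat, against 35.3, 32.02 and 34.00 CPM in WT fat on diet (0.63 ± 0.15 (SE), adjusted p = 0.0666). In the circadian clock list 2 of 19 were called lower, none higher, with a median of -0.26. Nr1d1, the repressor REV-ERB alpha, was at 32.04, 37.6 and 25.5 CPM in treated KO fat, against 118, 67.04 and 78.6 CPM in WT fat on diet (-1.47 ± 0.26 (SE), adjusted p = 0.0194), and Hlf, a clock output factor, at 8.23, 10.8 and 10.95 CPM in treated KO fat, against 18.9, 19.8 and 26.5 CPM in WT fat on diet (-1.12 ± 0.20 (SE), adjusted p = 0.0232), while Dbp (interval -0.45 to 0.35) and Cry1 (0.051 to 0.70) lay within 2-fold. The hour of sampling is not given in the sources used here. For interferon-stimulated genes edgeR called 0 members, an unadjusted p under 0.05 was reached by 2 higher and 2 lower members, DESeq2 called 1 higher and 1 lower, and limma-voom 2 higher and 1 lower. Irf9 (interval -0.24 to 0.52) lay within 2-fold, and Cxcl9, an interferon-induced chemokine, was at 5.55, 9.86 and 10.4 CPM in treated KO fat, against 37.9, 15.4 and 18.5 CPM in WT fat on diet (-1.48 ± 0.37 (SE), adjusted p = 0.0732).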
